A study of Mus musculus with 6 samples.

Results

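The phagocyte NADPH oxidase is described here through 5 of its genes, Cybb, Cyba, Ncf1, Ncf4 and Rac2, in thioglycollate-elicited peritoneal macrophages of WT and FOXO3 KO mice. The genes were chosen by name and found by symbol among 54648 symbols measured, and all 5 passed the filter on low counts that left 15608 genes for testing. RNA-seq was carried out on 3 WT and 3 FOXO3 KO libraries, called here by their group with its number (WT 1, FOXO3 KO 1). All mice were of strain C57BL/6, aged 6 to 8 weeks and fed standard chow. WT and FOXO3 KO mice were homozygous littermates of both sexes, and both groups received an intraperitoneal injection of thioglycollate, an irritant that draws monocytes into the abdominal cavity, where they mature into macrophages. No source restricts the knockout to macrophages. Harvested peritoneal cells were pelleted without a sort, and total RNA was sequenced in paired reads of 76 bp. The sources do not say whether each library came from a single mouse, so p-values measure the spread between these libraries.

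The oxidase is the enzyme with which neutrophils and macrophages turn oxygen into superoxide when they take up microbes, and its loss in people is known as chronic granulomatous disease. Cybb encodes gp91phox (also called NOX2), the catalytic chain that passes electrons from NADPH across the membrane, and Cyba encodes p22phox, its membrane partner; together they form flavocytochrome b558. Ncf1 encodes p47phox, the organiser that docks on p22phox once it is phosphorylated, Ncf4 encodes p40phox, which binds a phosphoinositide of the phagosome membrane, and Rac2 encodes the small GTPase that switches the assembled complex on.

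Library totals lay between 28083393 and 36424117 counts, and expression is given as CPM, read counts scaled to a common library size after TMM normalization. Foxo3, the targeted gene, was at 117, 107 and 73.1 CPM in WT 1 to 3, at 4.71 CPM in FOXO3 KO 1, at 104 CPM in FOXO3 KO 2 and at 4.29 CPM in FOXO3 KO 3. The library labelled FOXO3 KO 2 therefore held Foxo3 transcript at the WT level and goes against its label. Another library, WT 3, stood apart from the rest. Its summed markers of B cells were 5566 CPM against 355 to 1473 CPM in the other 5 libraries, those of mast cells 768 CPM against 98.4 to 287 CPM, and those of T cells 115 CPM against 17.6 to 44.4 CPM. WT 3 held both Xist (871 CPM) and transcripts of 4 Y-linked genes (55.7 CPM summed). In the other libraries, Xist was at most 0.177 CPM with 219 to 300 CPM of Y-linked transcripts in WT 1, WT 2, FOXO3 KO 1 and FOXO3 KO 2, and at 1130 CPM with 7.41 CPM in FOXO3 KO 3. Summed macrophage markers were 15563, 18248 and 13076 CPM in WT 1 to 3 and 15235, 16693 and 14789 CPM in FOXO3 KO 1 to 3. All 10 markers tested were present in every library, and WT 3 was the lowest library for 7 of them and the highest for 3. Summed markers of mesothelial cells and fibroblasts were 50.3, 40.2 and 30.0 CPM in WT 1 to 3 and 76.3, 337 and 149 CPM in FOXO3 KO 1 to 3, higher in every FOXO3 KO library, and 7 of the 8 markers were tested, all with a higher fitted level in FOXO3 KO. Those of red blood cells were 9.63 to 27.0 CPM in WT and 117, 9.23 and 182 CPM in FOXO3 KO 1 to 3. Some markers in these lists (Wt1, Krt19, Col1a1, Col1a2, Hba-a1, Hba-a2 and Alas2) were picked by the study as raised in these same libraries. Higher sums of these lists in FOXO3 KO are therefore no independent result. Summed markers of eosinophils (37.4 to 94.98 CPM) and NK cells (10.8 to 29.3 CPM) overlapped between the groups, as did those of dendritic cells, which were highest in WT 3 (171 CPM against 46.3 to 99.3 CPM). The fold change of each oxidase gene is given with all 6 libraries and with FOXO3 KO 2 or WT 3 left out, and values of other genes are for all 6 libraries unless stated.

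The oxidase genes are spread over 4 chromosomes. In the GENCODE M21 annotation of GRCm38 (the mm10 build), Cybb lies on the minus strand at chrX:9435252-9487771, Cyba on the minus strand at chr8:122424776-122432930, Ncf1 on the minus strand at chr5:134220053-134229625, Ncf4 on the plus strand at chr15:78244801-78262580 and Rac2 on the minus strand at chr15:78559167-78572783. Cyba overlaps Gm20388 and Ncf1 overlaps Gtf2ird2 on the opposite strand, and whether counting used strand is not given in the sources used here. The same limit holds for Rac1, Cybc1, Hvcn1 and Noxo1, described below, which also overlap a gene on the opposite strand. Gm20388 had 21.0 to 36.6 CPM and Gtf2ird2 6.31 to 11.3 CPM.

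The sequence before the start of each gene was read for the promoters that RefSeq gives for GRCm38.p6, which were those of Cybb, Cyba and Ncf1. They are shown because libraries with more Cybb also had more Psme2, F10 and Wars, as described below, and because FOXO3 is a forkhead factor. Psme2 and Wars are known as interferon-responsive genes, and F10 encodes coagulation factor X. Whether interferon played a part in these levels was not tested. Each window holds the 250 bases before the start that RefSeq gives, written 5′ to 3′ on the gene's own strand, with capitals marking matches to the interferon motif (GAAA, any 2 bases, GAAA, on either strand). The windows are chrX:9469325-9469574 for Cybb, chr5:134229626-134229875 for Ncf1 and chr8:122432941-122433190 for Cyba, all read from the minus strand. For Cybb this start is not the outer end of the GENCODE span: the window lies just before position 9469324, where the transcripts of the GENCODE basic set begin, and inside the span printed above.
Cybb promoter: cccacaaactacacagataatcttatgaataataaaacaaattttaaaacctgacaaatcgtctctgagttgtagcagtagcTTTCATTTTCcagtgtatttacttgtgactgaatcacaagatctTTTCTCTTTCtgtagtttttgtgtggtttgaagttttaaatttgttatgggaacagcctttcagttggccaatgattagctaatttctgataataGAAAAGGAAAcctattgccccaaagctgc
Ncf1 promoter: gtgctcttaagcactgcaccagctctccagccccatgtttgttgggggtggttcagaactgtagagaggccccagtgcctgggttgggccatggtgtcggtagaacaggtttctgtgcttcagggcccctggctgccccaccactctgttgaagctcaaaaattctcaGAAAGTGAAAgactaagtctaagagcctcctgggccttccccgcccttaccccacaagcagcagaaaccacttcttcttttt
Cyba promoter: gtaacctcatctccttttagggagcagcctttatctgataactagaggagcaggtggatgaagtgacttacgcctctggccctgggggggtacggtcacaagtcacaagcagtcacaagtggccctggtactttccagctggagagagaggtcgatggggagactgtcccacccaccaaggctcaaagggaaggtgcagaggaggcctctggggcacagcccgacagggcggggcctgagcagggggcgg
The interferon motif occurred 3 times before Cybb, at -168 to -159 and -124 to -115 on the opposite strand and at -29 to -20 on the gene's strand, counted back from the start. It occurred 1 time before Ncf1, at -82 to -73, and had 0 matches before Cyba. Of 32851 windows of the same length, 2.98% held this motif. Those windows were not matched to these genes for base composition, and the motif was chosen with earlier results known. The share therefore gives no test. The forkhead motif (GTAAACA, both strands), present in 3.17% of windows, and the PU.1 motif (GAGGAA, both strands), present in 23.3%, had 0 matches in the windows of Cybb and Ncf1. Cyba also had 0 matches to either. A match is a run of letters, not a bound site, and 0 matches to these exact letters does not show that related sites are absent.

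All 5 oxidase genes were well expressed, and none of them differed between WT and FOXO3 KO beyond the spread between libraries. Cybb was the 32nd highest of the 54648 symbols measured by mean CPM, Ncf1 the 206th, Cyba the 285th, Rac2 the 519th and Ncf4 the 1568th. The summed CPM of the 5 genes was 3101, 3320 and 2600 in WT 1 to 3 and 2949, 3459 and 2949 in FOXO3 KO 1 to 3. The group ranges of this sum overlapped. In bulk RNA, fewer cells of a type and less RNA per cell cannot be told apart.

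Of the membrane chains, Cybb was at 1572, 1635 and 1377 CPM in WT 1 to 3 and at 1457, 1943 and 1521 CPM in FOXO3 KO 1 to 3. Its highest library was FOXO3 KO 2, the one with Foxo3 at the WT level, its lowest was WT 3, and the groups overlapped. The means were 1528 ± 134 CPM in WT and 1640 ± 264 CPM in FOXO3 KO (SD, n = 3), and the log2 fold change of FOXO3 KO over WT was 0.10 (SE 0.20, adjusted p = 0.916 by edgeR's quasi-likelihood test). The fold was 1.07, with a 95% interval of 0.766 to 1.504. Without FOXO3 KO 2, the log2 fold change was -0.04 (SE 0.23, adjusted p = 0.998), and without WT 3 it was 0.04 (SE 0.16, adjusted p = 0.972). The direction for the catalytic chain thus depended on FOXO3 KO 2. FOXO3 KO 2 also had the highest summed markers of mesothelial cells and fibroblasts, whose part in its Cybb level was not tested.

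Cyba, the partner chain, was at 476, 630 and 275 CPM in WT 1 to 3 and at 506, 499 and 412 CPM in FOXO3 KO 1 to 3. It was the most variable member: WT 3 was at 54.5% of the mean of the other 5 libraries and WT 2 was the highest library. The means were 460 ± 178 and 472 ± 52.4 CPM (SD, n = 3), with a log2 fold change of 0.04 (SE 0.30, adjusted p = 0.982) and a fold of 1.03 (95% interval 0.615 to 1.71). Without FOXO3 KO 2 the log2 fold change was -0.01 (SE 0.38, adjusted p = 0.999), and without WT 3 it was -0.22 (SE 0.15, adjusted p = 0.796). The direction turned in both cases, and in neither did the groups separate. It also turned without FOXO3 KO 1 (-0.02).

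Among the cytosolic subunits, the organiser Ncf1 was at 631, 616 and 400 CPM in WT 1 to 3 and at 549, 585 and 552 CPM in FOXO3 KO 1 to 3. The FOXO3 KO libraries lay close together between the higher pair of WT libraries and WT 3, which was at 68.2% of the mean of the others. The means were 549 ± 129 and 562 ± 20.1 CPM (SD, n = 3), with a log2 fold change of 0.03 (SE 0.20, adjusted p = 0.976) and a fold of 1.02 (95% interval 0.726 to 1.44). Leaving out FOXO3 KO 2 gave a log2 fold change of 0.00 (SE 0.26, adjusted p = 0.999). Leaving out WT 3 gave -0.14 (SE 0.09, adjusted p = 0.749), with each FOXO3 KO library below WT 1 and WT 2.

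Ncf4, which encodes the phosphoinositide-binding subunit, was at 149, 163 and 116 CPM in WT 1 to 3 and at 148, 153 and 141 CPM in FOXO3 KO 1 to 3. Apart from WT 3, all libraries lay within 141 to 163 CPM. The means were 143 ± 23.7 and 147 ± 6.03 CPM (SD, n = 3), with a log2 fold change of 0.05 (SE 0.14, adjusted p = 0.947) and a fold of 1.03 (95% interval 0.811 to 1.32). The log2 fold change was 0.02 (SE 0.19) without FOXO3 KO 2 and -0.07 (SE 0.08) without WT 3, with overlapping groups in each case.

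Rac2, the GTPase, was at 273, 277 and 431 CPM in WT 1 to 3 and at 289, 279 and 322 CPM in FOXO3 KO 1 to 3. It ran opposite to the other members in WT 3, which was its highest library at 149.7% of the mean of the other 5. The means were 327 ± 90.2 and 297 ± 22.7 CPM (SD, n = 3), with a log2 fold change of -0.14 (SE 0.21, adjusted p = 0.902) and a fold of 0.908 (95% interval 0.639 to 1.29). Without FOXO3 KO 2 the log2 fold change was -0.10 (SE 0.26, adjusted p = 0.994). Without WT 3 it was 0.12 (SE 0.09, adjusted p = 0.821), with each FOXO3 KO library above WT 1 and WT 2. WT 3 was also the library with the highest summed markers of B, T and mast cells; their part in its Rac2 level was not tested.

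**Figure D1:**
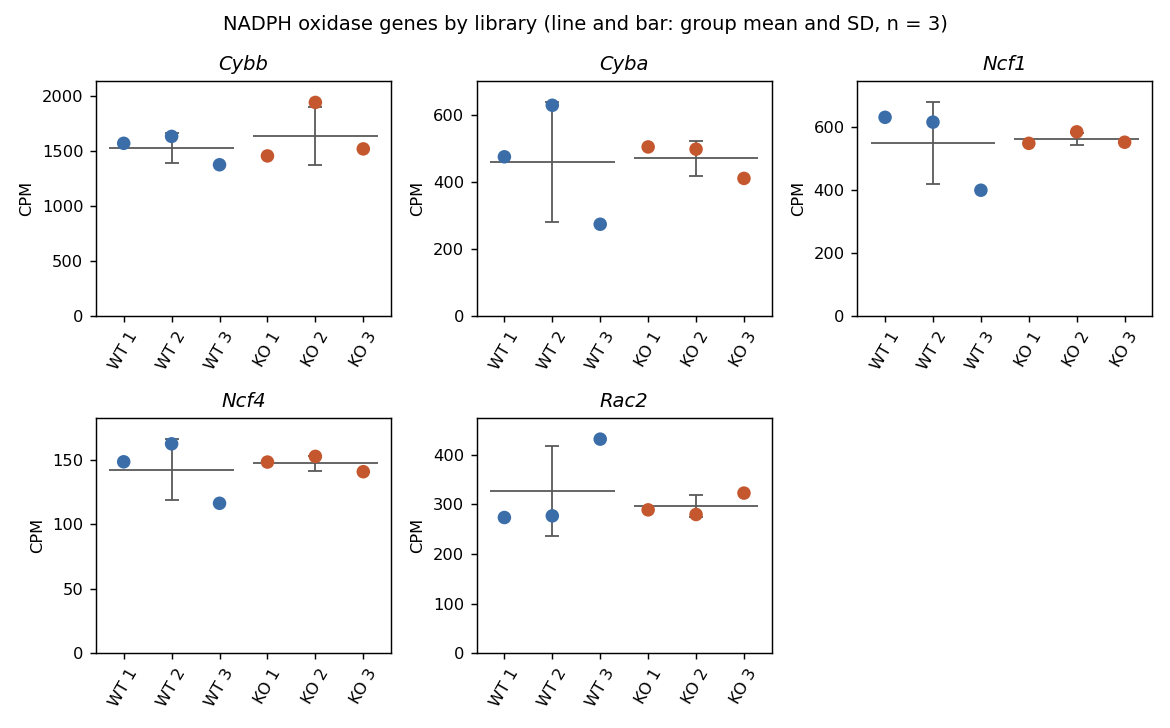
Expression in CPM (y axis, from 0) of each oxidase gene in the 6 libraries (x axis), WT in blue and FOXO3 KO in orange, with lines and bars for the group mean and SD (n = 3). WT 3 is the lowest library for Cybb, Cyba, Ncf1 and Ncf4 and the highest for Rac2, and Cybb peaks in FOXO3 KO 2 at 1943 CPM.

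With all 6 libraries, 0 of the 5 genes passed an adjusted p under 0.05 and a fold over 1.5 by edgeR's quasi-likelihood test, as did 0.0% of all genes tested, where the smallest adjusted p of any gene was 0.714. The quasi-likelihood test did not call Foxo3 itself (adjusted p = 0.859, and 0.105 without FOXO3 KO 2, at a log2 fold change of -4.46). Its lack of calls therefore does not show that the members were unchanged. DESeq2 without FOXO3 KO 2 did call Foxo3 (adjusted p = 8.3e-44). With all 6 libraries DESeq2 gave Foxo3 no adjusted p, at a log2 fold change of -1.40, so the same limit holds there. The quasi-likelihood test called Foxo3 without both FOXO3 KO 2 and WT 3 (adjusted p = 0.0018). With all 6 libraries, at an unadjusted p under 0.05, the quasi-likelihood test called 0 of the 5 and 5.68% of all genes. DESeq2 called 0 of the 5 and 0.794% of all genes at the adjusted threshold. Without FOXO3 KO 2 the quasi-likelihood test again called 0 of the 5 and 0.0% of genes, or 4.3% at an unadjusted p under 0.05, while DESeq2 called 0 of the 5 and 0.666% of genes. Without WT 3 it called 0 of the 5 and 0.0% of genes, or 8.41% at an unadjusted p under 0.05. An exact permutation test of CPM over the libraries, two-sided, gave p between 0.7 and 1.0 for the 5 genes, where 0.1 is the smallest p that 3 against 3 libraries allow.

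The intervals set how large a difference these libraries could have held. With all 6 libraries the 95% intervals of the fold for Ncf1 and Ncf4 lay within a 1.5-fold difference in either direction. That of Cybb reached past it on the upper side (1.504), that of Rac2 on the lower side (0.639), and that of Cyba on both sides (0.615 and 1.71). Without WT 3 they were narrower: the interval of the fold was 0.793 to 1.34 for Cybb, 0.665 to 1.11 for Cyba, 0.786 to 1.05 for Ncf1, 0.836 to 1.09 for Ncf4 and 0.931 to 1.27 for Rac2. Without FOXO3 KO 2, where the FOXO3 KO group held only libraries low in Foxo3, they were wider, and the interval for Cyba ran from 0.510 to 1.95. In that fit the interval was 0.630 to 1.595 for Ncf1, 0.647 to 1.47 for Cybb, 0.591 to 1.48 for Rac2 and 0.731 to 1.41 for Ncf4. Only that of Ncf4 then lay within a 1.5-fold difference in either direction.

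**Figure D2:**
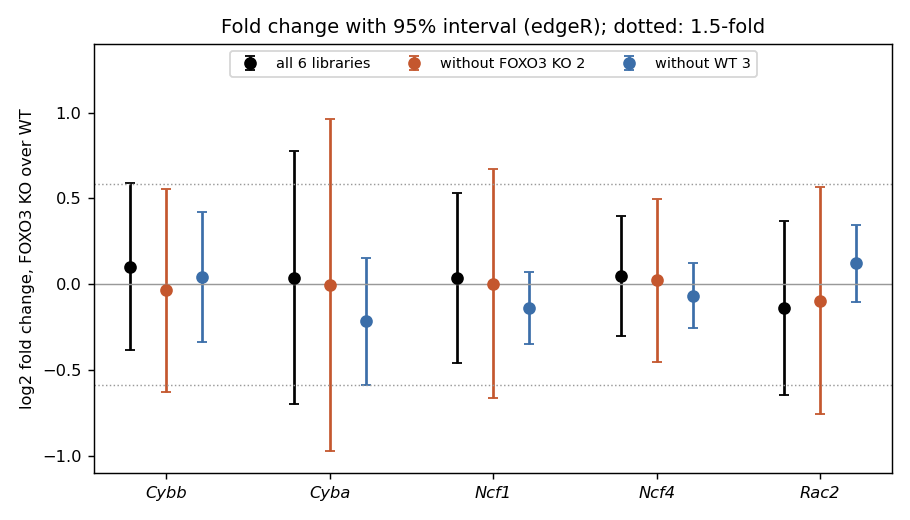
Log2 fold change of FOXO3 KO over WT (y axis) for each oxidase gene (x axis), with the 95% interval from edgeR, for all 6 libraries (black), without FOXO3 KO 2 (orange) and without WT 3 (blue); dotted lines mark 1.5-fold in each direction. Every interval includes 0, and Cyba, Ncf1, Ncf4 and Rac2 change sign when WT 3 is left out.

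WT 3 was an extreme library for all 5 members, being the lowest of the 6 for Cybb, Cyba, Ncf1 and Ncf4 and the highest for Rac2. It also had the lowest summed macrophage markers (13076 CPM) and neutrophil markers (137 CPM), whose part in the members' levels was not tested. Over all genes tested, WT 3 was the lowest library for 37.5% and the highest for 37.2%, so that 74.7% of genes had it at one end. The WT and FOXO3 KO groups overlapped for each of the 5 members with all 6 libraries, when 12.4% of all genes did not overlap. They also overlapped for each without FOXO3 KO 2, when 20.3% of genes did not. Without WT 3, Ncf1 lay lower and Rac2 higher in every FOXO3 KO library, 2 of 5 members, when 25.4% of all genes did not overlap (11.9% lower and 13.5% higher in FOXO3 KO).

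The libraries also fall into those with low Xist (WT 1, WT 2, FOXO3 KO 1 and FOXO3 KO 2) and those with high Xist (WT 3 and FOXO3 KO 3), and the difference between groups was taken within each. For Cybb, which lies on the X chromosome, the log2 difference of FOXO3 KO from WT was 0.08 among low-Xist and 0.14 among high-Xist libraries. For Cyba it was -0.14 and 0.58, for Ncf1 -0.14 and 0.46, for Ncf4 -0.05 and 0.28, and for Rac2 0.05 and -0.42. Apart from Cybb, the sign differed between the classes for each member. The shared sign of Cybb depended on FOXO3 KO 2 (1943 CPM). Among the low-Xist libraries, FOXO3 KO 1 (1457 CPM) lay below WT 1 (1572 CPM) and WT 2 (1635 CPM) for this gene. The high-Xist class holds 1 library per group, WT 3 and FOXO3 KO 3, and gives no test.

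Levels of different genes were compared per kilobase of exon, since a long transcript collects more reads. On this scale Cyba was the highest member, with a mean of 627 CPM per kb over the 6 libraries, followed by Cybb at 333, Ncf1 at 193, Rac2 at 103 and Ncf4 at 99.1 CPM per kb. Cyba was above Cybb and Cybb above Ncf1 in each of the 6 libraries. Ncf4 and Rac2 could not be put in order: Ncf4 ranged from 79.6 to 111 and Rac2 from 89.9 to 142 CPM per kb, with Ncf4 the higher in WT 1, WT 2, FOXO3 KO 1 and FOXO3 KO 2 and Rac2 in the other libraries. In WT 3 alone Rac2 (142 CPM per kb) also passed Ncf1 (139 CPM per kb). The order depends on the length used. Per kilobase of coding sequence, Cybb was highest with a mean of 926 CPM per kb, above Cyba at 810, Rac2 at 542, Ncf1 at 445 and Ncf4 at 143 CPM per kb.

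Rac1, the ubiquitous relative of Rac2 that can also switch on the oxidase, had a mean of 97.8 CPM per kb of exon, close to that of Rac2. Here too the length used matters: per kilobase of coding sequence the means were 651 for Rac1 and 542 for Rac2. The ratio of Rac2 to Rac1 per kb of exon was 0.919, 0.867 and 2.002 in WT 1 to 3 and 0.863, 0.886 and 1.07 in FOXO3 KO 1 to 3. Only WT 3 and FOXO3 KO 3 had more Rac2 than Rac1 on this scale. Rac1 itself, named here after its values were seen, was at 412, 443 and 299 CPM in WT and at 464, 438 and 417 CPM in FOXO3 KO, with a log2 fold change of 0.19 (SE 0.18, adjusted p = 0.863). Rac3, which is known mainly from neurons, was at 1.58 to 4.21 CPM per kb of exon.

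The balance between subunits was followed as the log2 ratio of CPM in each of the 10 pairs of members. Ncf1 and Ncf4, whose products sit in the same cytosolic complex, kept their ratio within the narrowest range of the 10 pairs: 2.09, 1.92 and 1.78 in WT 1 to 3 and 1.89, 1.94 and 1.97 in FOXO3 KO 1 to 3. Cyba and Rac2 had the widest range, at 0.80, 1.19 and -0.65 in WT and 0.81, 0.84 and 0.35 in FOXO3 KO. The chains of flavocytochrome b558 lay between them, with a Cybb to Cyba log2 ratio of 1.72, 1.38 and 2.32 in WT and 1.53, 1.96 and 1.88 in FOXO3 KO. The difference between group means was between -0.02 and 0.22 over the 10 pairs. Exact permutation p-values were between 0.7 and 1.0, and 1.0 for each pair after Benjamini-Hochberg adjustment over the 10.

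Each member was set beside the genes tested that had a mean of at least 32 CPM (6160 genes other than the member). This floor was the same for each member and lies below the level of all of them. The 3 genes with the highest Pearson's r on log2(CPM + 0.5) over the 6 libraries were taken as most like that member. These r values describe 6 libraries, which share WT 3 as an extreme, and carry no test. Being picked as the highest of 6160 genes makes them high, and r without WT 3 uses libraries that served for the choice. Cybb was most like Psme2 (r = 0.99), an interferon-responsive proteasome activator subunit, F10 (0.97), coagulation factor X, and Wars (0.95), an interferon-responsive tRNA synthetase. Psme2 was at 106, 108 and 93.2 CPM in WT 1 to 3 and at 97.6, 132 and 104 CPM in FOXO3 KO 1 to 3, so that it shared with Cybb the peak in FOXO3 KO 2. Without WT 3, r was 0.99, 0.97 and 0.93 for these genes.

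The other members had other neighbours. Cyba was most like Tyrobp (r = 0.9996, and 0.9992 without WT 3), which encodes the signalling adaptor DAP12, and like Ssu72 and Tuba1b. Tyrobp was at 759, 977 and 461 CPM in WT and at 792, 789 and 653 CPM in FOXO3 KO, the same order of libraries as the high WT 2 and low WT 3 of Cyba. Ncf1 was most like Tmem37 and Arhgap31, Ncf4 like Aagab, Chpt1 and Leprot, and Rac2 like Cebpz, Ankrd33b and Dlg1, with r between 0.996 and 0.999 over the 6 libraries and between 0.967 and 0.998 without WT 3. None of the genes named is another member.

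**Figure D3:**
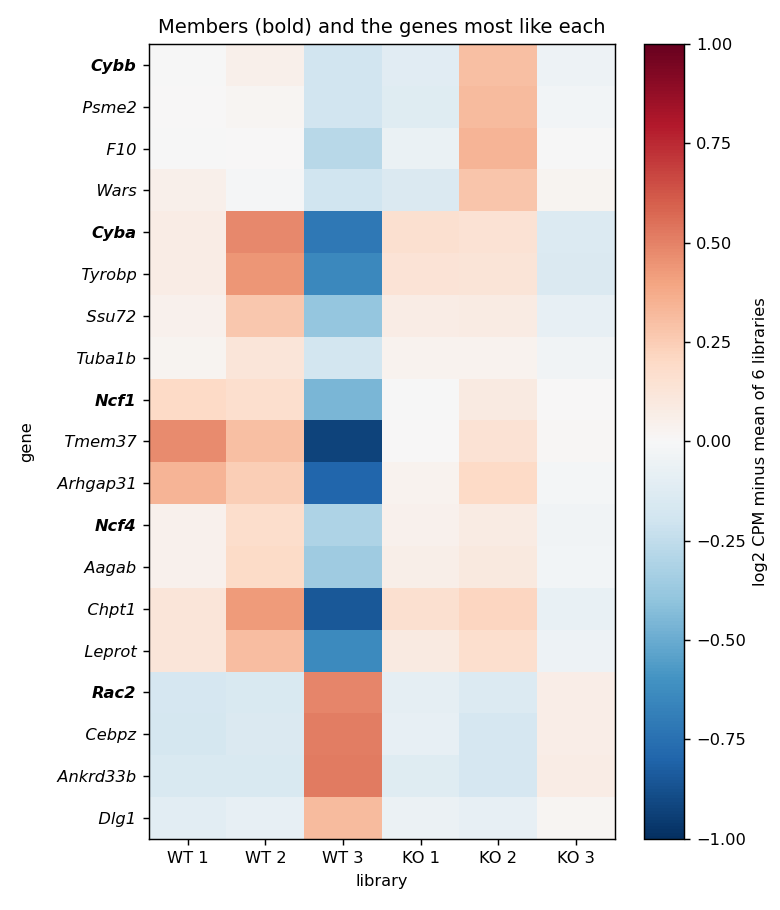
Colour gives log2 CPM minus the mean of the 6 libraries for each oxidase gene (bold) and the genes named as most like it (rows) in each library (columns). Cybb and its neighbours are highest in FOXO3 KO 2, Cyba, Ncf1, Ncf4 and theirs are lowest in WT 3, and Rac2 and its neighbours are highest in WT 3.

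Among the members themselves, Cyba and Ncf4 moved together across the 6 libraries (r = 0.99, and 0.97 without WT 3). Rac2 moved against Ncf1 (r = -0.97) and Cyba (r = -0.94), and less closely without WT 3 (-0.75 and -0.70). Cybb and Cyba, whose products form 1 complex, had r = 0.57, and 0.21 without WT 3. The points share the 6 libraries and, for the first values, the extreme position of WT 3.

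The surroundings of the oxidase were described through 6 lists of genes, none of which had a gene past an adjusted p under 0.05 by the quasi-likelihood test. Of 19 genes for the Rac switch and assembly (exchange factors, GDP dissociation inhibitors, protein kinases C, PI3-kinases), all 19 were tested, 12 had a higher and 7 a lower fitted level in FOXO3 KO, and their median log2 fold change was 0.08, against -0.01 over all genes tested. Cdc42, a small GTPase related to Rac, was at 716, 805 and 548 CPM in WT and 826, 753 and 717 CPM in FOXO3 KO. Dock2, a Rac exchange factor of blood cells, was at 758, 736 and 755 CPM in WT and 702, 716 and 771 CPM in FOXO3 KO. Neither separated the groups. Pak1, a kinase that Rac activates, had a log2 fold change of 0.33 (SE 0.20, adjusted p = 0.843), and Pik3c3, which makes the phosphoinositide that p40phox binds, had -0.12 (SE 0.08, adjusted p = 0.844). Without WT 3, Pak1 was at 0.17 and Cdc42, at 0.15 with all 6 libraries, at 0.02. Pik3c3 was the 1 gene of the 19 whose groups did not overlap, when 12.4% of all genes did not, at 55.8 to 59.7 CPM in WT and 52.3 to 55.2 CPM in FOXO3 KO. With FOXO3 KO 2 left out, 4 of the 19 did not overlap (3 higher and 1 lower in FOXO3 KO), when 20.3% of all genes did not, and without WT 3 it was 3 of 19, all lower, when 25.4% did not.

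The list of maturation and support held 6 symbols for 5 genes, since Cybc1 was also listed under an older symbol. Of the 5, 4 had a lower and 1 a higher fitted level in FOXO3 KO, and the median log2 fold change was -0.29 (-0.08 without WT 3). Of the 5, 2 (Hvcn1 and Coro1a) lay lower without overlap, when 12.4% of all genes did not overlap. Hvcn1 encodes the voltage-gated proton channel that balances the charge moved by the oxidase. It was at 180, 179 and 180 CPM in WT 1 to 3 and at 137, 172 and 118 CPM in FOXO3 KO 1 to 3. All FOXO3 KO libraries were below all WT libraries, and FOXO3 KO 2, with Foxo3 at the WT level, was the closest to WT. The log2 fold change was -0.33 (SE 0.15, unadjusted p = 0.0713, adjusted p = 0.839) by the quasi-likelihood test, and -0.49 (adjusted p = 0.928) without FOXO3 KO 2, where DESeq2 gave an adjusted p of 0.060. The difference did not pass the threshold in any of these fits. Neutrophil and red blood cell markers were highest in FOXO3 KO 1 and FOXO3 KO 3, the libraries lowest in Hvcn1, and their part in its level was not tested.

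Coro1a, an actin-binding protein reported to bind p40phox, was at 453, 512 and 589 CPM in WT and at 414, 406 and 453 CPM in FOXO3 KO, with WT 1 (452.99 CPM) and FOXO3 KO 3 (452.87 CPM) almost level and a log2 fold change of -0.29 (SE 0.15, adjusted p = 0.839), or -0.17 without WT 3. WT 3, its highest library, also had the highest summed B and T cell markers, whose part in the Coro1a level was not tested. Nrros, a membrane protein of the endoplasmic reticulum that limits the supply of gp91phox, was at 408, 438 and 232 CPM in WT and at 450, 417 and 440 CPM in FOXO3 KO. Its log2 fold change was 0.28 (SE 0.25, adjusted p = 0.860), with WT 3 low as for Cyba, and 0.05 without WT 3. Cybc1, the chaperone of flavocytochrome b558, was at 114, 119 and 152 CPM in WT and at 107, 113 and 120 CPM in FOXO3 KO.

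Other NADPH oxidases were nearly silent in these cells. Of 9 genes listed, only Noxo1, which encodes an organiser related to p47phox, passed the filter, at 2.02 to 2.61 CPM with a log2 fold change of -0.03 (SE 0.22, adjusted p = 0.982). Nox4, a constitutively active relative of gp91phox, was at 0.055 to 0.280 CPM.

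Of 16 transcription factors known to act on oxidase genes, 14 were tested, 10 with a higher and 4 with a lower fitted level in FOXO3 KO, and the median log2 fold change was 0.14. When FOXO3 KO 2 was left out, 7 were higher and 7 lower, with a median of 0.06. Spi1, which encodes PU.1, was at 256, 280 and 148 CPM in WT and at 268, 247 and 239 CPM in FOXO3 KO, and Cebpa was at 220, 260 and 106 CPM and at 235, 232 and 224 CPM. Both were lowest in WT 3, like Cyba and Ncf1, and their log2 fold changes of 0.14 and 0.24 turned to -0.08 and -0.05 without WT 3. Cebpb, a C/EBP factor of activated macrophages, was at 88.9, 93.9 and 76.5 CPM in WT and at 117, 124 and 107 CPM in FOXO3 KO, with every FOXO3 KO library higher, FOXO3 KO 2 included. Its log2 fold change was 0.42 (SE 0.12, unadjusted p = 0.011, adjusted p = 0.714), and it was the 1 factor of 14 at an unadjusted p under 0.05, which 5.68% of all genes met; its log2 fold change was 0.37 without FOXO3 KO 2 and 0.35 without WT 3. Cux1, a homeodomain factor described as a repressor of Cybb, was at 107, 98.6 and 109 CPM in WT and at 132, 110 and 140 CPM in FOXO3 KO (log2 fold change 0.28, SE 0.12, adjusted p = 0.839). Of the 14 factors tested, 3 (Cebpb, Cux1 and Runx1) lay higher without overlap, when 12.4% of all genes did not overlap.

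The interferon-responsive factor Irf1, named here after its values were seen, had its highest library in FOXO3 KO 2, like Cybb. Irf1 was at 126, 78.3 and 131 CPM in WT and at 64.5, 186 and 149 CPM in FOXO3 KO. Unlike Cybb, it was above WT 1 and WT 2 in WT 3. Its log2 fold change was 0.25 (SE 0.41, adjusted p = 0.904), and turned to -0.06 without FOXO3 KO 2.

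Among 17 receptors and kinases that start oxidase assembly, 11 had a higher and 6 a lower fitted level in FOXO3 KO, and the median log2 fold change was 0.13. Without WT 3, 8 were higher and 9 lower, with a median of -0.03. In that fit 3 of the 17 were higher at an unadjusted p under 0.05 by the quasi-likelihood test, against 8.41% of all genes. There, 5 lay higher and 2 lower without overlap, when 25.4% of all genes did not overlap. Itgam, the CD11b chain of the complement receptor, was at 1580, 1721 and 1981 CPM in WT and at 1912, 1970 and 1945 CPM in FOXO3 KO, and its partner Itgb2 at 1647, 1744 and 1208 CPM and at 1677, 1663 and 1481 CPM. Neither separated the groups with all 6 libraries. Without WT 3, Itgam lay higher in every FOXO3 KO library, and its log2 fold change went from 0.14 to 0.25 (SE 0.11, adjusted p = 0.635 by the quasi-likelihood test). Itgb2 then went from 0.07 to -0.07 and overlapped. Fgr, a Src-family kinase, was at 158, 154 and 93.1 CPM in WT and at 185, 172 and 209 CPM in FOXO3 KO, without overlap (log2 fold change 0.48, SE 0.22, adjusted p = 0.839, and 0.29 without WT 3). Of the 17 genes, 1 (Fgr) lay higher and 2 (Syk and Btk) lay lower without overlap, when 12.4% of all genes did not overlap. Syk, named after its values were seen, was at 767, 749 and 909 CPM in WT and at 627, 666 and 712 CPM in FOXO3 KO. Btk, also named after its values were seen, was at 127, 126 and 175 CPM and at 118, 117 and 123 CPM. Without WT 3, the log2 fold change went from -0.27 to -0.17 for Syk and from -0.26 to -0.07 for Btk. WT 3, the highest library for each, also had the highest summed B cell markers, whose part in these levels was not tested. Fpr2, a formyl peptide receptor, was at 3.74 to 12.8 CPM in WT and 10.4 to 16.9 CPM in FOXO3 KO, with a log2 fold change of 0.85 (SE 0.46, adjusted p = 0.839), or 1.44 without WT 3. Summed neutrophil markers were 218, 225 and 137 CPM in WT and 508, 232 and 428 CPM in FOXO3 KO, with the 9 of 13 markers tested all higher in FOXO3 KO and Ly6g, Camp, Ngp and Elane under 1 CPM in every library. Some of these markers were picked by the study from these libraries. Neutrophils carry the same oxidase and receptors, and the part of neutrophil RNA in these levels was not tested.

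Of 8 genes listed for superoxide and peroxide handling, 7 were tested, among them Nos2, which makes nitric oxide. Of these, 5 had a higher and 2 a lower fitted level in FOXO3 KO, and the median log2 fold change was 0.26 (0.03 without WT 3). Sod2, the mitochondrial superoxide dismutase, was at 74.1, 87.3 and 73.8 CPM in WT and at 98.7, 96.7 and 97.9 CPM in FOXO3 KO (log2 fold change 0.32, SE 0.10, unadjusted p = 0.020, adjusted p = 0.765). Sod1, the cytosolic dismutase, named after its values were seen, was at 143, 150 and 146 CPM in WT and at 124, 128 and 105 CPM in FOXO3 KO (log2 fold change -0.29, SE 0.11, unadjusted p = 0.0352, adjusted p = 0.839). The groups did not overlap for either dismutase, in opposite directions and with FOXO3 KO 2 on the side of its label. Of the 7 genes tested, 3 (Sod2, Sod3 and Nos2) lay higher and 1 (Sod1) lower without overlap, when 12.4% of all genes did not overlap. Sod3, the secreted dismutase, was at 0.035 to 0.415 CPM in WT and at 0.638 to 1.68 CPM in FOXO3 KO, with a log2 fold change of 2.37 (SE 0.77, adjusted p = 0.773) at counts close to the filter. With Nos2, the inducible nitric oxide synthase, at 0.084 to 0.360 CPM in WT and 0.450 to 1.82 CPM in FOXO3 KO, 4 of the 7 genes met an unadjusted p under 0.05, against 5.68% of all genes. The count without FOXO3 KO 2 was 0 of 7, against 4.3% of all genes, and the log2 fold change of Nos2 went from 1.98 to 1.03. Sod1 and Sod2 did not shrink in that fit, and their groups still did not overlap, when 20.3% of all genes did not. Their log2 fold changes were -0.35 and 0.33, with unadjusted p of 0.051 and 0.059 by the quasi-likelihood test. Without WT 3, 2 of the 7 were higher and 1 lower at an unadjusted p under 0.05, against 8.41% of all genes. Sod3 and Nos2 were highest in FOXO3 KO 2, as were the summed markers of mesothelial cells and fibroblasts, whose part in these levels was not tested. The peroxiredoxins Prdx1 and Prdx5, which remove peroxide, overlapped between the groups, with log2 fold changes of 0.26 (SE 0.31) and 0.04 (SE 0.19), which turned to -0.0022 and -0.09 without WT 3.

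**Figure D4:**
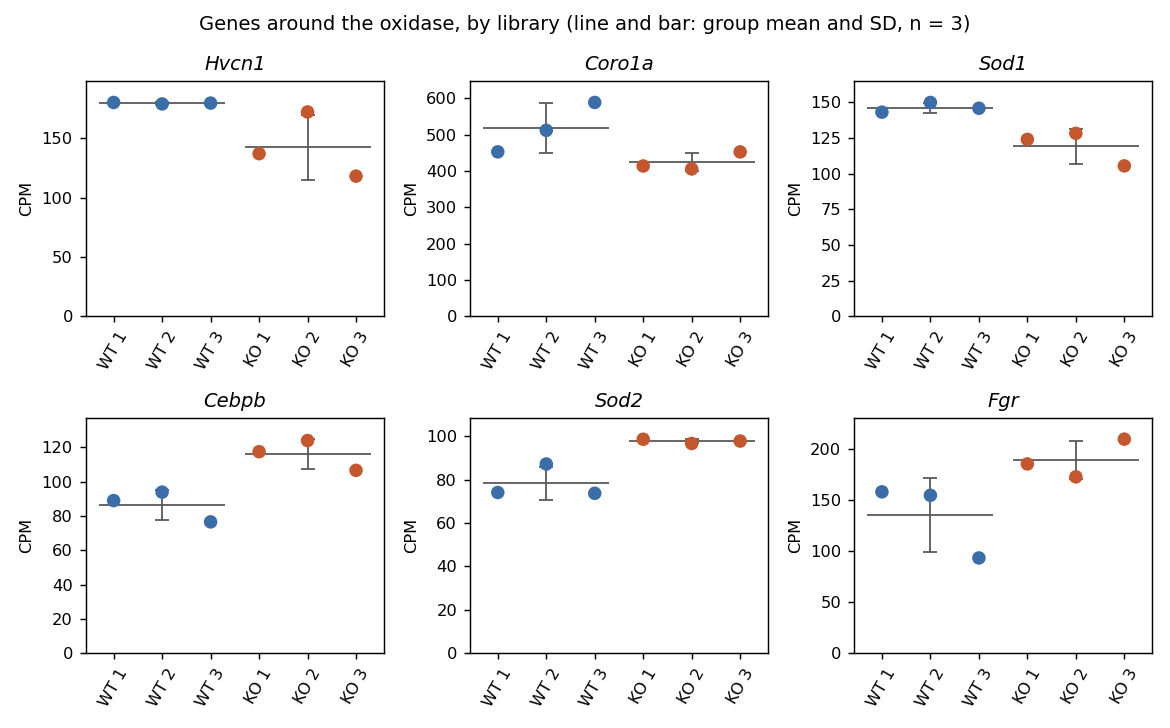
Expression in CPM (y axis, from 0) of 6 genes around the oxidase in the 6 libraries (x axis), WT in blue and FOXO3 KO in orange, with lines and bars for the group mean and SD (n = 3). Hvcn1, Coro1a and Sod1 are lower and Cebpb, Sod2 and Fgr higher in every FOXO3 KO library than in every WT library (for Coro1a by under 1 CPM), with adjusted p between 0.714 and 0.839. The genes shown are ones whose groups did not overlap, as was so for 12.4% of all genes tested. Most other genes tested in the lists overlapped.

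**Figure D5:**
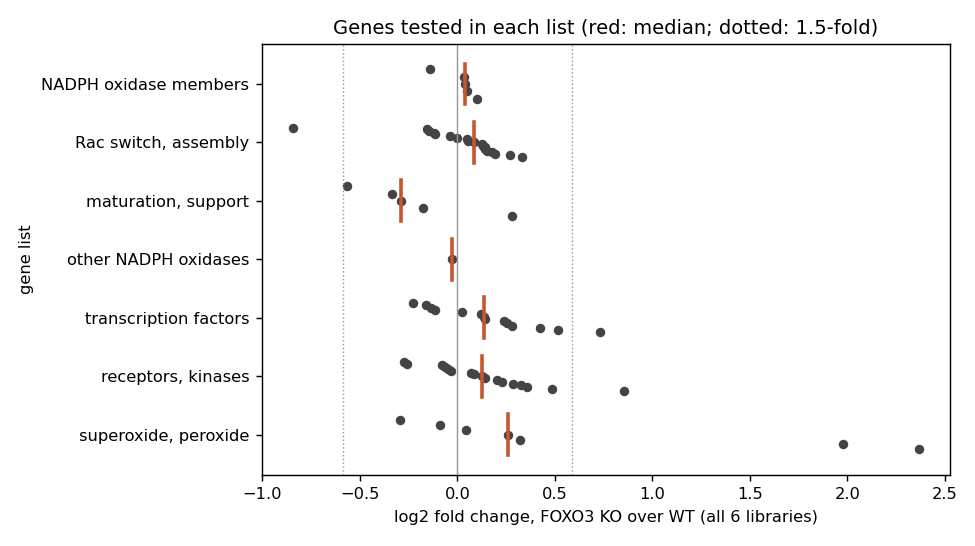
Log2 fold change of FOXO3 KO over WT (x axis) for each gene tested in the oxidase and in the 6 lists around it (y axis), with the list median in red and 1.5-fold marked by dotted lines. The 5 oxidase genes lie between -0.14 and 0.10, and Sod3 and Nos2 lie farthest to the right at CPM under 2.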

How the data were processed

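RNA-seq was measured in 3 WT and 3 FOXO3 KO libraries. The authors deposited estimated counts per gene symbol, not normalized, and the submitters' processing notes name STAR 2.6.1d, kallisto 0.46.0, DESeq2 and the mm10 build, with no role or order. The deposited estimated counts were whole to within 0.01 for 81.4% of values, and each was rounded before testing. No pair of libraries agreed within sampling noise (chi-square per degree of freedom of at least 22.0). In R 4.3.3, edgeR 4.0.16 was used for the comparison (filterByExpr, TMM factors, glmQLFit and glmQLFTest). P-values of its quasi-likelihood test were adjusted by Benjamini-Hochberg across the 15608 genes that passed the filter (16217 without FOXO3 KO 2). Each SE was derived from the log2 fold change and the F statistic of its test, and 95% intervals from that SE and the degrees of freedom. Calls needed an adjusted p under 0.05 and a fold over 1.5. Library depth of 28083393 to 36424117 counts gives each oxidase gene at least 4166 counts, so that the spread between libraries, not counting, sets the precision. Alternatives were the likelihood ratio test, DESeq2 1.42.0, limma-voom (limma 3.58.1), other scaling, other filters, a replicate block, an Xist covariate and each library left out. The fit without both FOXO3 KO 2 and WT 3, r without WT 3 and the coding length were added after seeing the data.

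Members and lists were chosen with earlier results of these data known, as were the motifs, and no list gives independent support. The rule names the 5 members, Foxo3, the 2 genes of highest mean CPM and the 2 of smallest unadjusted p in each list, and the 3 genes most like each member (1 of those for Ncf1 is not reported here); others were chosen after their values were seen. Summed CPM was taken over 10 marker lists, of macrophages, neutrophils, eosinophils, B, T and NK cells, dendritic cells, mast cells, mesothelial cells with fibroblasts, and red blood cells. Exon and coding lengths and coordinates come from GENCODE M21, and promoters from RefSeq, which held 3 of the 5 members. The scripts were tested on simulated counts. Figures and tables used Python 3.11.15 with pandas 2.3.3, numpy 2.4.6, scipy 1.17.1 and matplotlib 3.10.9.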

Additional observations from a re-analysis of the deposited data

How the results depend on the processing

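The result that no oxidase gene passed the threshold held in each of the 18 alternatives, with adjusted p of a member between 0.592 and 0.9997. In 14 of these alternatives no gene of the whole table was called, Foxo3 included. Those fits do not set the members apart from other genes. Of 90 fitted values of the members, 76 kept the direction and 14 reversed, 7 of them on leaving out 1 library. Leaving out 1 library at a time, the log2 fold change ranged over -0.036 to 0.18 for Cybb, -0.22 to 0.33 for Cyba, -0.14 to 0.15 for Ncf1, -0.067 to 0.16 for Ncf4 and -0.26 to 0.12 for Rac2. WT 3 turned Cyba, Ncf1, Ncf4 and Rac2, FOXO3 KO 2 turned Cybb and Cyba, and FOXO3 KO 1 turned Cyba (-0.018). Foxo3 ranged over -4.46 to -0.87, with the lowest value without FOXO3 KO 2. DESeq2 without FOXO3 KO 2 gave -0.039 for Cybb, -0.0096 for Cyba, -0.081 for Prdx5 and -0.064 for Irf1. Without both FOXO3 KO 2 and WT 3, values were -0.10 for Cybb, -0.27 for Cyba, -0.18 for Ncf1, -0.10 for Ncf4, 0.15 for Rac2, -0.079 for Spi1, -0.063 for Cebpa, -0.10 for Itgb2, -0.073 for Prdx1 and -0.22 for Prdx5. The cause of these reversals was not tested beyond the libraries left out.

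Pair ratios over the same omissions ranged over -0.23 to 0.24 for Cybb/Cyba, -0.067 to 0.17 for Cybb/Ncf1, -0.068 to 0.12 for Cybb/Ncf4, -0.086 to 0.36 for Cybb/Rac2, -0.070 to 0.22 for Cyba/Ncf1, -0.14 to 0.21 for Cyba/Ncf4, -0.33 to 0.59 for Cyba/Rac2, -0.073 to 0.080 for Ncf1/Ncf4, -0.26 to 0.40 for Ncf1/Rac2 and -0.19 to 0.38 for Ncf4/Rac2. Reversed ranges of other genes were -0.11 to 0.084 for Noxo1, -0.082 to 0.32 for Spi1, -0.050 to 0.50 for Cebpa, -0.067 to 0.17 for Itgb2, -0.0022 to 0.55 for Prdx1, -0.095 to 0.20 for Prdx5 and -0.063 to 0.58 for Irf1. The count of other NADPH oxidases with a higher fitted level was 0 to 1.

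Counts of calls over the whole table, 0 in the fit reported, were 118 higher and 6 lower by DESeq2, 102 and 7 by the likelihood ratio test, 77 and 31 by DESeq2 without FOXO3 KO 2, and 3 and 1 without both libraries. No member was among them. Per kilobase of coding length, levels moved to 926 for Cybb, 445 for Ncf1, 143 for Ncf4 and 542 for Rac2. Of the same-numbered libraries, pairs 1 and 3 deviated together (r = 0.34 and 0.57) and pair 2 did not (-0.06), with WT 2 closest to FOXO3 KO 1 (0.61), so the numbers were not taken to pair them; with the replicate block the log2 fold changes were 0.09 for Cybb, 0.11 for Cyba, 0.06 for Ncf1, 0.06 for Ncf4 and -0.11 for Rac2, with 0 calls over the whole table. Other scalings moved the median of all genes by at most 0.02. With 3 libraries a group, 2 of which stand apart or go against their label, differences smaller than the intervals given cannot be seen.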
